A study of Mus musculus with 9 samples.

Results

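The genes described here are 10 members of the NF-kB system: the subunit genes Nfkb1, Nfkb2, Rel, Rela and Relb, the inhibitor genes Nfkbia, Nfkbie and Tnfaip3, and the survival and adaptor genes Traf1 and Birc3. They were chosen by name, and all 10 were among the 16939 genes listed in both deposited UMI count tables (19858 genes in either). They were followed in single-nucleus RNA-seq of kidneys from 9 male mice aged 11 to 19 weeks. A UMI count is the number of distinct tagged transcripts of a gene in a nucleus.

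The 4 control mice carried the alleles Six2TGC, Rosa26rtTA and pTRE-H2BeGFP and ate doxycycline food at 625 mg/kg, which puts GFP into the nuclei of nephron cells. Control 1 had no surgery, and controls 2, 3 and 4 had sham surgery. The 5 injured mice carried Krt20T2A-CE and INTACTnuGFP/+, received tamoxifen at 0.05 mg/g and had both renal pedicles clamped for 18 min (ischemia-reperfusion injury, IRI), so that GFP traces nuclei of cells that had expressed Krt20, a gene of injured tubule. Of these, 2 were taken at day 7 and 3 at day 28. All nuclei were sorted for GFP. Mouse line, inducing agent, traced cells and IRI changed together between control and IRI, so their parts in any such difference cannot be told apart. The comparison of day 28 with day 7 shares line, agent and sort. Serum creatinine 48 h after IRI was 0.488 mg/dL in day 28 mouse 1 and 0.133 to 0.255 mg/dL in the other 4 IRI mice.

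NF-kB is a family of transcription factors made of paired subunits that are held in the cytoplasm by IkB proteins until a receptor signal has them degraded. In the canonical branch Nfkb1 and Rela products pair and are freed from the IkB protein that Nfkbia encodes, and in the alternative branch the Nfkb2 product pairs with Relb. Nfkbia, Nfkbie, Tnfaip3, Birc3, Traf1, Relb and Nfkb2 are themselves well-known target genes, which gives the system its feedback, and in kidney tubule the pathway is known for driving chemokine and adhesion molecule genes after injury.

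Because these genes are textbook targets of their own products, the 250 bases before their annotated starts were searched for the NF-kB consensus motif on both strands (RefSeq promoter table, GRCm38.p6). The table held 8 of the 10 members. The consensus was found before at least 1 start of 5 of them (Nfkbia, Nfkbie, Tnfaip3, Rel and Nfkb2). It was found in 7.25% of 32851 promoter windows of the same length. That share counts single windows, while the 8 members had 11 windows, Nfkb2 and Tnfaip3 more than 1 each, so the measures are unlike. It was not found in the windows of Traf1, Birc3 and Rela. A match describes letters, not a bound site, and a window without a match says nothing about the factor. The windows of 2 inhibitor genes and of Traf1, the gene closest to 0 in controls, are shown with matches in capitals. They lie at chr12:55492648-55492897 (Nfkbia, minus strand), chr17:45555450-45555699 (Nfkbie, plus strand) and chr2:34961773-34962022 (Traf1, minus strand).
Nfkbia: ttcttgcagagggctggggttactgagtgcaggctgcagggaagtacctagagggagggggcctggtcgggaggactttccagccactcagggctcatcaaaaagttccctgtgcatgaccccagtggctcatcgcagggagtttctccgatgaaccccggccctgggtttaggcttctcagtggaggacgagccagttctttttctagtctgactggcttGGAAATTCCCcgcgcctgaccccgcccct
Nfkbie: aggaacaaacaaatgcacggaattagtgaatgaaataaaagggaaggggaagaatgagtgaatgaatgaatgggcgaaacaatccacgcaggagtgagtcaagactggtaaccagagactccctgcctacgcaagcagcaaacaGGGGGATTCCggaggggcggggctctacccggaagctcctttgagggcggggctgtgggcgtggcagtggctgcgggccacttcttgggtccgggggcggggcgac
Traf1: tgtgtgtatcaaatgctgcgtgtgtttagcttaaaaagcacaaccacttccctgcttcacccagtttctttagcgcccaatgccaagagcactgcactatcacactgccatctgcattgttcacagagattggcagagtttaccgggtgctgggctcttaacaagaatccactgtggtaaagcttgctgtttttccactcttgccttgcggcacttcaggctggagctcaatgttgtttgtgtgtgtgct
The Nfkbia match lay 29 to 20 bases before the start, and that of Nfkbie lay 106 to 97 bases before. The Rel window held GGGAAATCCC 92 to 83 bases before the start, overlapped by a second match on the other strand. Tnfaip3 had GGGGATTTCC on the opposite strand 12 to 3 bases before its first start, and GGGACACCCC 125 to 116 bases before it. Of the 3 annotated starts of Nfkb2, 1 had GGGAATTCCC (39 to 30 bases before), overlapped by a match on the other strand, and GGGGCTTTCC (11 to 2 bases before), and the other 2 had 1 match each.

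The libraries held 1397 to 4564 nuclei each, 27738 in all, with 1833617 to 14641038 UMIs in total and median depths of 668 to 4174 UMIs per nucleus. Barcodes of the 4 controls and day 28 mouse 1 began with one set of sequences and those of the other 4 IRI mice with another, which is called the barcode set below. It follows injury in all mice but day 28 mouse 1. At most 26 barcodes were shared by any pair of libraries. Clusters made without the members and their pathway genes were named from marker lists, hence the ending "-like". Proximal tubule-like (PT-like) nuclei numbered 10787 in controls and 11819 after IRI, and 858 and 806 nuclei resembled the thick ascending limb (TAL-like). PT-like clusters were split into uninjured-state clusters, whose proximal tubule marker score was the higher, and injured-state clusters, whose injured-tubule score was the higher. Injured-state nuclei were 51 of the 10787 in controls and 10676 of the 11819 after IRI, so different clusters make up most of the class in the groups compared. Krt20 was at 14.4 to 24.8 CPM in PT-like sums of IRI mice and 0.755 to 6.92 CPM in controls, while 284 of 13116 control and 1066 of 14622 IRI nuclei were endothelium-, stroma- or leukocyte-like despite the nephron gates.

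In PT-like nuclei the subunit genes Nfkb1, Rel, Rela and Relb were higher at both times after IRI than in controls, and Nfkb2 did not pass the test at either. Levels are counts per 1000000 UMIs (CPM) of sums over the PT-like nuclei of 1 mouse, scaled by edgeR's TMM factors, and are compared within a gene only. Nfkb1, whose product is the precursor of the small canonical subunit, was at 49.995, 41.5, 44.2 and 35.3 CPM in controls 1 to 4, at 517 and 446 CPM at day 7, and at 299, 337 and 428 CPM at day 28. All IRI libraries lay above all controls, and all day 28 libraries lay below both day 7 libraries. The log2 change was 3.48 ± 0.22 (SE, edgeR adjusted p = 4.4e-07) at day 7 and 3.04 ± 0.21 (edgeR adjusted p = 7.2e-07) at day 28.

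Relb, the subunit of the alternative branch, was at 7.37, 6.80, 2.80 and 8.83 CPM in controls, 115 and 115 CPM at day 7, and 98.0, 79.6 and 151 CPM at day 28. No IRI library came near the controls. Its log2 change was 4.25 ± 0.37 at day 7 (edgeR adjusted p = 3.8e-06) and 4.18 ± 0.35 at day 28 (edgeR adjusted p = 3.2e-06). Nfkb2, the gene of its partner, stood at 7.59, 5.79, 5.01 and 10.1 CPM in controls, 10.5 and 7.76 CPM at day 7, and 20.9, 7.35 and 11.2 CPM at day 28. These ranges overlapped at both times, and the log2 differences were 0.42 ± 0.42 (edgeR adjusted p = 0.42) and 0.87 ± 0.39 (edgeR adjusted p = 0.085). At day 28 single mice moved it: without mouse 2 it was 1.20 (edgeR adjusted p = 0.035), and without mouse 1, the highest library, 0.44 (edgeR adjusted p = 0.305). Nfkb2 overlaps Psd and AC114539.1 on the opposite strand, and whether reads were counted by strand is not stated.

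Rela, the main activating subunit, was at 13.6, 16.9, 8.98 and 18.3 CPM in controls, 43.1 and 38.2 CPM at day 7, and 32.3, 32.3 and 40.4 CPM at day 28. Its groups did not overlap, with log2 changes of 1.53 ± 0.27 (edgeR adjusted p = 6.7e-04) and 1.32 ± 0.25 (edgeR adjusted p = 0.0012). Rel, a subunit best known from lymphocytes, was at 4.24, 3.78, 1.47 and 5.05 CPM in controls, 11.9 and 8.40 CPM at day 7, and 8.46, 6.50 and 11.0 CPM at day 28. It also lay above every control in every IRI library, with log2 changes of 1.58 ± 0.44 (edgeR adjusted p = 0.0098) and 1.34 ± 0.42 (edgeR adjusted p = 0.020). The call for Rel was lost without day 7 mouse 1 (edgeR adjusted p = 0.10) and without day 28 mouse 3 (edgeR adjusted p = 0.092). Summed markers of leukocytes, where Rel is abundant, were at 15.8 to 50.5 CPM in PT-like sums of controls, 39.7 to 42.6 CPM at day 7 and 39.4 to 81.1 CPM at day 28. None of the 8 leukocyte markers was at 0, their sum in leukocyte-like IRI nuclei was 3310 CPM, and their part in the Rel difference was not tested.

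The 3 inhibitor genes did not move alike. Nfkbie, which encodes the epsilon form of IkB, was at 1.56, 1.51, 1.18 and 0.631 CPM in controls, 14.5 and 9.16 CPM at day 7, and 12.4, 9.99 and 18.9 CPM at day 28. Tnfaip3, a ubiquitin-editing enzyme that shuts off signalling below the receptors, was at 5.80, 4.28, 3.09 and 5.68 CPM in controls, 53.2 and 33.1 CPM at day 7, and 31.8, 48.2 and 52.8 CPM at day 28. Both genes lay far above the controls in all 5 IRI libraries. For Nfkbie the log2 change was 3.17 ± 0.41 (edgeR adjusted p = 7.6e-05) and 3.39 ± 0.39 (edgeR adjusted p = 3.5e-05). For Tnfaip3 it was 3.25 ± 0.32 (edgeR adjusted p = 1.0e-05) and 3.30 ± 0.30 (edgeR adjusted p = 6.5e-06).

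Nfkbia, the classical IkB gene, behaved differently. It was at 45.3, 31.5, 57.3 and 49.8 CPM in controls, 61.0 and 48.5 CPM at day 7, and 163, 71.5 and 89.7 CPM at day 28. The day 7 libraries overlapped the controls, and only the day 28 libraries lay above them. The log2 difference was 0.25 ± 0.33 at day 7 (edgeR adjusted p = 0.53) and 1.22 ± 0.29 at day 28 (edgeR adjusted p = 0.0049). Without day 28 mouse 1, the highest library, the day 28 change was 0.81 (edgeR adjusted p = 0.012). Nfkbia is short, spanning 3238 bases, and among the 2809 shortest genes tested (it, Nfkb2 and Nfkbie included) the median log2 difference from control was -1.08 at day 7 and -0.58 at day 28, against 0.47 and 0.30 in the 2809 longest, which hold Nfkb1. The part of gene length in these values was not tested.

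Traf1 and Birc3 encode partners of the TNF receptor complexes: Traf1 is an adaptor, and Birc3 a ubiquitin ligase that limits cell death and restrains the alternative branch. Traf1 was at 0.446, 0, 0 and 0 CPM in controls, 37.3 and 30.9 CPM at day 7, and 35.3, 34.5 and 51.1 CPM at day 28. The 4 controls together had 2 Traf1 UMIs in PT-like nuclei. The ratio of the group mean to the pooled controls was 287 at day 7 (counting interval 79.5 to 2371) and 339 at day 28 (93.9 to 2801), intervals that cover counting error of the controls only. The test called Traf1 at both times (edgeR adjusted p = 7.3e-07 and 4.8e-07). Birc3 was at 16.7, 10.8, 7.21 and 15.8 CPM in controls, 269 and 261 CPM at day 7, and 193, 241 and 342 CPM at day 28. Every IRI library lay above every control, with log2 changes of 4.43 ± 0.32 (edgeR adjusted p = 1.1e-06) and 4.40 ± 0.31 (edgeR adjusted p = 9.3e-07).

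**Figure D1:**
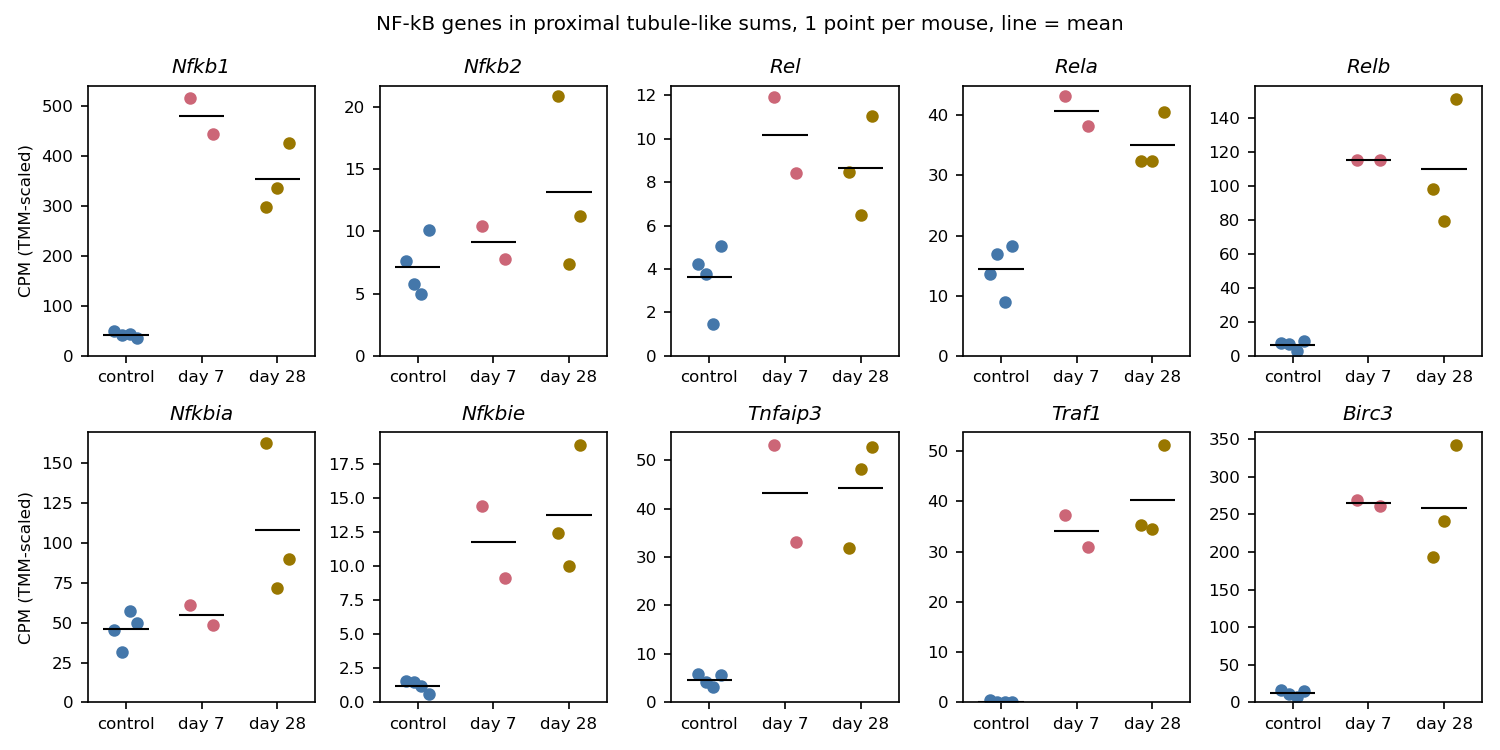
CPM (TMM-scaled, y axis from 0) of each gene in PT-like sums, 1 point per mouse for 4 control, 2 day 7 and 3 day 28 mice, with the group mean as a line. In 8 of the 10 genes both IRI groups lie wholly above the controls, while Nfkb2 overlaps them at both times and Nfkbia overlaps them at day 7. The share of all genes with groups apart in this way was not counted. Of 14192 genes tested, 26.3% were called higher at day 7 and 24.1% at day 28.

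In all, 8 of the 10 members were called higher at day 7 and none lower, where 51.1% of 14192 genes were called (26.3% higher, 24.8% lower). At day 28, 9 of 10 were called higher and none lower, where 45.3% of genes were called (24.1% higher, 21.2% lower). The median log2 change of the members was 3.21 and 3.17, against 0.01 and 0.04 for all genes tested. Both comparisons use the same controls. Without TMM factors the median of all genes moved up by 0.25 and 0.27, and the higher share of called genes went from 51.5% to 64.2% and from 53.2% to 69.2%. The count of members was then 8 and 10. With the barcode set as a term, 6 members were called at day 7, with Rel and Rela lost (edgeR adjusted p = 0.21 and 0.066), and 9 at day 28, with Nfkb2 gained and Rel lost. Among the libraries of the barcode set of the controls, where day 28 mouse 1 is the one IRI library and is assumed to vary like the controls, 8 were called at day 28.

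Between day 7 and day 28 none of the 10 members was called by edgeR in PT-like sums, where 5.66% of genes were called (4.32% higher, 1.34% lower), and DESeq2 called none either. At an unadjusted p below 0.05 there was 1 member. That was Nfkbia, 0.96 ± 0.35 higher at day 28 on the log2 scale (edgeR adjusted p = 0.14), with all 3 later libraries above both earlier ones. Nfkb1 was 0.44 ± 0.23 lower (log2 difference -0.44, edgeR adjusted p = 0.30), and the other 8 differences ran from -0.24 (Rel) to 0.46 (Nfkb2). In injured-state nuclei alone edgeR called none of 10, where 4.22% of 13782 genes were called (3.16% higher, 1.05% lower), and 1 was at an unadjusted p below 0.05. Nfkbia was again the farthest from 0, at 66.4 and 53.2 CPM at day 7 and 238, 81.9 and 111 CPM at day 28 (log2 difference 1.23 ± 0.44, edgeR adjusted p = 0.17). The highest of these is day 28 mouse 1, the mouse with the highest early creatinine and the control-type barcode set. Its injured-state nuclei were also highest in Nfkb2, at 32.0 CPM against 8.34 to 14.2 CPM in the other 4.

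**Figure D2:**
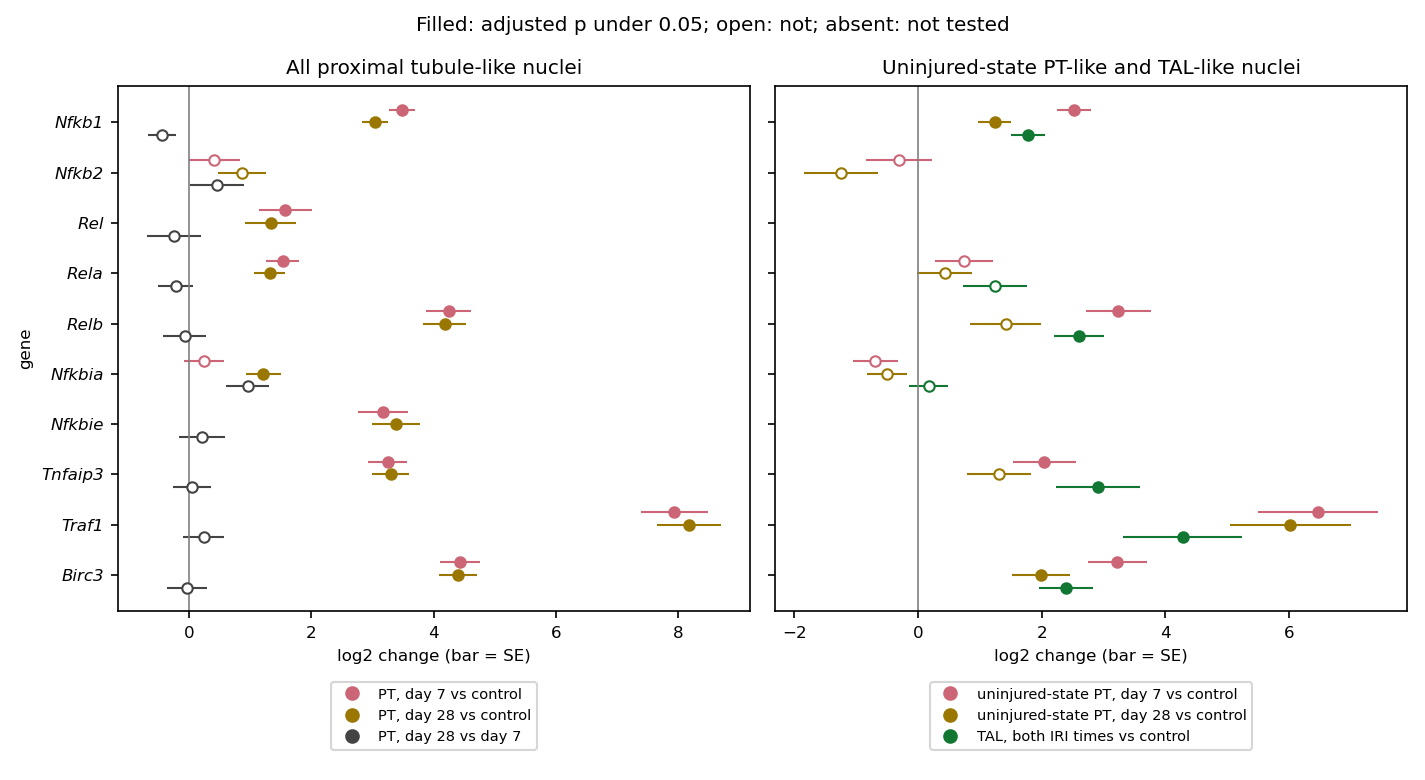
Log2 change (x axis, bar = SE) per gene from edgeR: all PT-like nuclei on the left, uninjured-state PT-like and TAL-like nuclei on the right, filled where adjusted p was below 0.05. Nfkbia is filled in PT-like nuclei at day 28 against control and in no other comparison plotted, and the Traf1 positions depend on the prior count because the controls held 1 or 2 UMIs.

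Within each IRI mouse, injured-state nuclei held more of every member than uninjured-state nuclei of the same kidneys, in 5 of 5 libraries. The states were defined from other genes of the same nuclei, so this is a description without a test. How many of all genes do so was not counted. The injured-tubule marker list that set the states includes Vcam1 and Lcn2, which are also on the list of NF-kB target genes used below. Many uninjured-state sums were almost empty. In every IRI mouse but day 7 mouse 1 they held 1 to 3 UMIs of Nfkb2 and 0 to 2 of Rel. Those of Nfkbie held 0, 1 and 3 UMIs at day 28. Levels by state, cluster and class are CPM without TMM factors. Nfkb1 was at 259 and 293 CPM in uninjured-state and 571 and 513 CPM in injured-state nuclei of the day 7 mice. At day 28 it was at 74.1, 81.5 and 164 CPM in the uninjured state and at 434, 369 and 528 CPM in the injured state. The ratio between states was thus 1.75 to 2.21 in day 7 mice and 3.22 to 5.86 in day 28 mice. Without the cluster led by Cyp7b1, described below and left out after seeing the data, the uninjured-state level of Nfkb1 was 101 and 143 CPM at day 7 and 61.3, 61.5 and 75.3 CPM at day 28. The ratios were then 5.65 and 3.60 at day 7 and 7.09, 6.0045 and 7.01 at day 28. Birc3 ran from 99.2 and 156 CPM (uninjured state) to 302 and 302 CPM (injured state) at day 7, and from 20.6, 26.7 and 98.8 to 290, 266 and 429 CPM at day 28. Nfkbia ratios were 1.97 and 1.93 at day 7 and 5.17, 4.41 and 2.67 at day 28, and without that cluster 3.11, 1.57, 5.63, 5.31 and 11.9 in the same order. The 51 injured-state nuclei of controls, pooled, had 167 CPM of Nfkb1 (16 UMIs, exact Poisson interval 95.6 to 272, counting error only) against 37.8 CPM in the uninjured state of controls. Of these 51 nuclei, 27 were in the cycling cluster led by Lockd, Diaph3, Top2a and Mki67, and 14 in that led by Gm17268 and Ccl2.

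**Figure D3:**
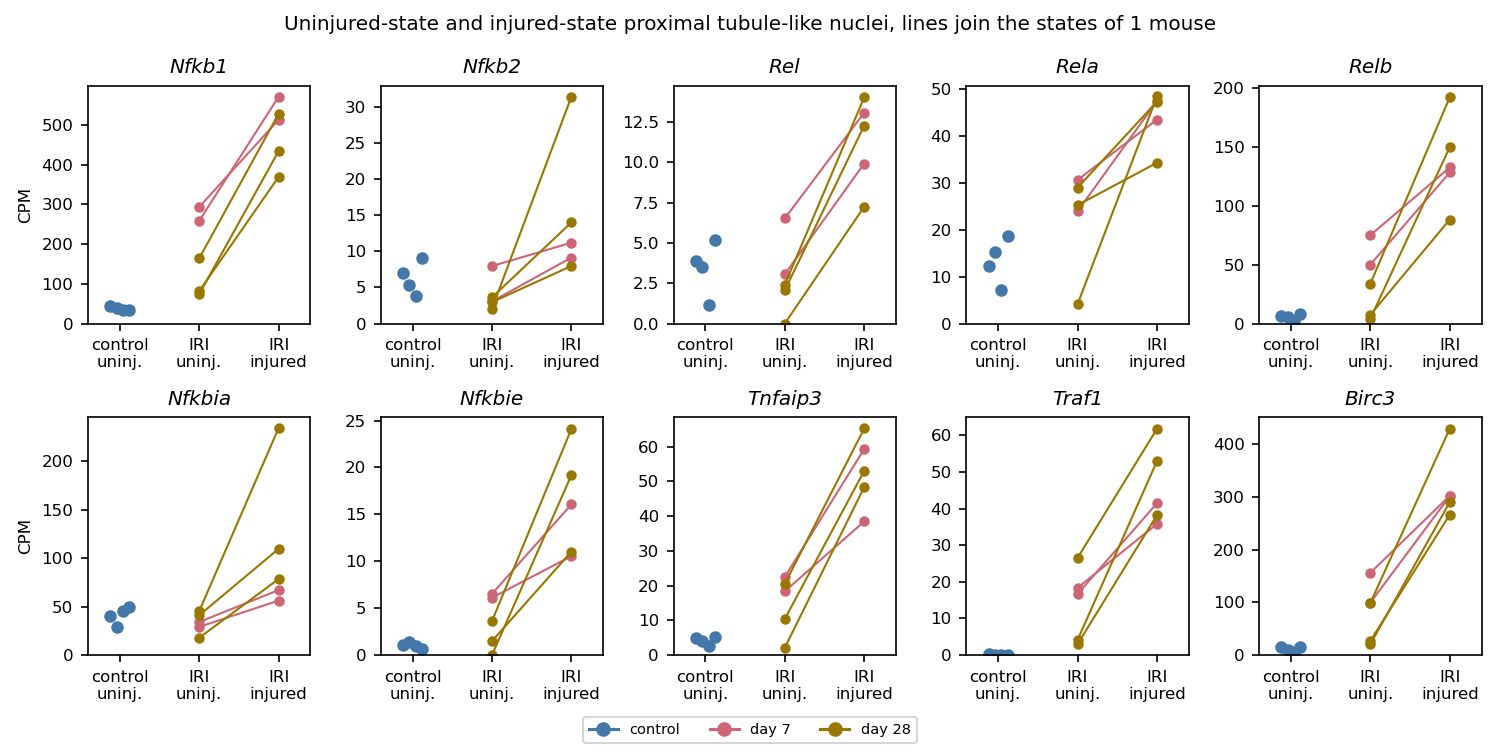
CPM (y axis from 0, no TMM factors) of each gene in uninjured-state PT-like nuclei of controls and in both states of IRI mice, with a line joining the states of 1 mouse. All 50 lines rise from uninjured to injured, some of them from 3 or fewer UMIs, and the share of all genes that do so was not counted. The day 28 lines of Nfkb1 start lower than its day 7 lines.

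Uninjured-state nuclei of IRI mice also differed from controls. At day 7, 5 of the 8 members tested were higher and none lower, where 31% of 10994 genes were called (13.4% higher, 17.6% lower). Nfkb1 was at 49.7, 42.4, 42.8 and 35.7 CPM in controls, 237 and 256 CPM at day 7, and 71.7, 76.4 and 152 CPM at day 28. Its log2 change was 2.52 ± 0.28 at day 7 (edgeR adjusted p = 6.4e-05) and 1.24 ± 0.26 at day 28 (edgeR adjusted p = 0.0069). Relb (3.24 ± 0.52, edgeR adjusted p = 7.9e-04), Tnfaip3 (2.05 ± 0.51, edgeR adjusted p = 0.0097) and Birc3 (3.22 ± 0.48, edgeR adjusted p = 4.9e-04) were also called at day 7. Traf1 was called too (edgeR adjusted p = 5.1e-04), with a ratio to the pooled controls, which held 2 UMIs, of 130 (counting interval 35.9 to 1072). The comparisons of uninjured-state nuclei that involve day 7 were chosen after seeing the data. Without TMM factors the median of all genes moved up by 0.33 at day 7 and 0.26 at day 28, and the higher share of called genes from 43.3% to 67.4% and from 48.3% to 74.5%, with 5 and 3 members called as before.

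At day 28, 3 of 8 were higher and none lower in the uninjured state, where 18.8% of genes were called (9.08% higher, 9.71% lower): Nfkb1, Birc3 and Traf1. Birc3 was at 16.2, 10.1, 7.11 and 16.2 CPM in controls and 19.9, 25.007 and 91.7 CPM at day 28 (log2 change 1.99 ± 0.47, edgeR adjusted p = 0.012). Day 28 mouse 3 stood far above the other 2. Without it only Traf1 was called, and without day 28 mouse 1 the count was 5. Traf1 rested on 2, 2 and 22 UMIs in day 28 mice 1, 2 and 3, and on 2 UMIs in the controls together. Its call without mouse 3 thus rests on very few UMIs. Nfkb2 was lower in all day 28 mice (1.99, 2.78 and 3.36 CPM) than in any control (4.79 to 9.44 CPM) but was not called (log2 difference -1.25 ± 0.60, edgeR adjusted p = 0.16). The day 28 values of Nfkb2 rest on 1, 2 and 3 UMIs, so this separation lies near the limit of counting. Nfkbia was at 43.8, 16.7 and 38.0 CPM against 32.3 to 56.4 CPM in controls (log2 difference -0.51 ± 0.32, edgeR adjusted p = 0.29). Rel and Nfkbie did not pass the count filter, with 3 and 4 UMIs at day 28. With the barcode set as a term no member was called at either time.

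Between the times, 1 of 8 members was called in the uninjured state, where 2.93% of genes were called (2.12% higher, 0.81% lower): Nfkb1 was lower at day 28 (log2 change -1.28 ± 0.31, edgeR adjusted p = 0.042). This call was lost when any of 7 single mice was left out, with edgeR adjusted p between 0.058 and 0.29, and held with DESeq2 (adjusted p = 0.0066). Without day 28 mouse 3 the count was 3, with Relb (-3.26) and Birc3 (-2.30) added.

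The uninjured state after IRI was not uniform. One cluster, led by Cyp7b1 and Slc7a12, scored 0.884 for injured-tubule markers, although its proximal tubule score of 1.31 was higher. Injured-state clusters led by Gm16311 and Sorcs1 scored less for injured-tubule markers, 0.592 and 0.678. With clustering seed 1 the cluster led by Cyp7b1 and Slc7a12 was called injured-state. In the main clustering its median depth, 4588 UMIs per nucleus, was the highest of all clusters, and doublets in it were not tested for. Its nuclei numbered 99 and 89 at day 7, then 12, 68 and 40 at day 28, and 1 came from a control. Nfkb1 in it was at 381 and 388 CPM in the day 7 mice and at 112 and 333 CPM in day 28 mice 2 and 3. In the cluster led by Hnf4aos the same gene was at 80.1 and 149 CPM at day 7, and 68.3 and 86.9 CPM at day 28. Birc3, in the same mice, was at 162, 244, 48.5 and 231 CPM in the first cluster and 11.9, 17.8, 5.46 and 25.6 CPM in the second. With the Cyp7b1-led cluster left out, an alternative chosen after seeing the data, 1 member was called at day 7 and none at day 28. At day 28 Nfkb1 was then 0.59 higher on the log2 scale (edgeR adjusted p = 0.098) and Birc3 0.64 (edgeR adjusted p = 0.36). At day 7 Birc3 was 0.41 higher (edgeR adjusted p = 0.63).

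Controls held a cluster with higher NF-kB gene levels as well. It had AC117197.3, Slc5a12, Ugt1a10 and Cxcl10 among its leading genes and held 194 nuclei in control 1, the mouse without surgery, and 100, 152 and 32 in controls 2, 3 and 4. Nfkb1 was at 162, 156, 154 and 193 CPM in it, against 35.3, 33.1, 30.1 and 30.9 CPM in the other uninjured-state nuclei of the same mice. Birc3 was at 96.2, 75.1, 80.3 and 161 CPM against 7.99, 6.33, 3.03 and 12.5 CPM, and Relb at 35.7, 69.4, 16.7 and 96.5 CPM against 3.99, 3.16, 1.69 and 5.92 CPM. Nfkbia was at 79.7, 69.4, 90.4 and 193 CPM against 37.3, 27.3, 43.8 and 46.1 CPM. The differences in these 4 genes had the same direction in 4 of 4 controls, sham or not. The values of control 4 rest on 3 to 6 UMIs per gene. Clusters were formed from other genes of these nuclei, so no test was made.

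**Figure D4:**
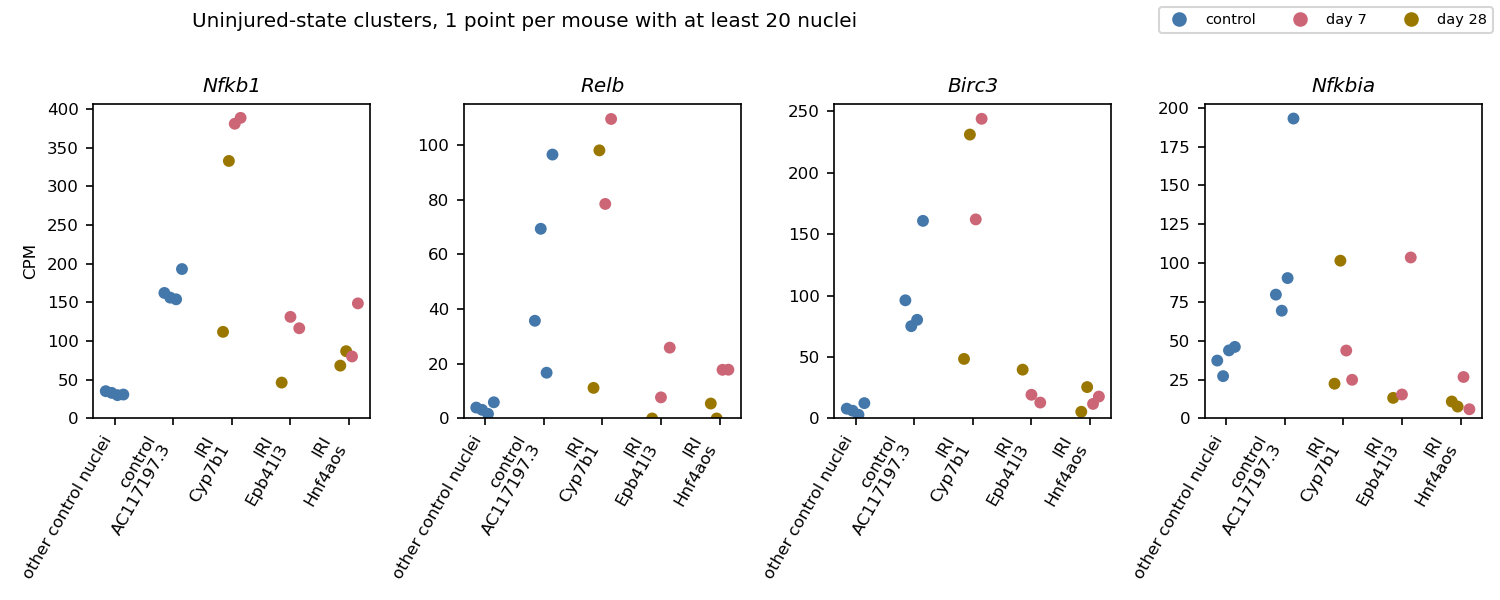
CPM (y axis from 0) of 4 genes in uninjured-state PT-like clusters, 1 point per mouse with at least 20 nuclei, coloured by group. The AC117197.3-led cluster of controls and the Cyp7b1-led cluster of IRI mice lie above the other control nuclei for Nfkb1, Relb and Birc3.

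Injured-state clusters differed among themselves, and so did the mice that filled them. In the IRI libraries with at least 20 nuclei of a cluster, Nfkb1 was at 488 to 921 CPM in the cluster led by Havcr1 and Kcnip4 (5 libraries) and at 642 and 672 CPM in that led by Cdh13 and Cd44 (the 2 day 7 libraries). It was at 129 to 314 CPM in the Gm16311-led cluster (5 libraries) and 189 to 312 CPM in the one led by Sorcs1 (5 libraries), below the Havcr1- and Kcnip4-led cluster in each mouse. Havcr1 and Kcnip4 were also leading genes of the Sorcs1-led cluster, after Sorcs1. Its injured-tubule score was 0.678, against 1.578 for the Havcr1- and Kcnip4-led cluster. Traf1 was at 41.4 to 140 CPM in the Havcr1- and Kcnip4-led cluster and at 7.03 to 14.5 CPM in the Sorcs1-led one, again apart in each mouse. The Sorcs1-led values of day 28 mice 1 and 3 rest on 1 UMI each, and the 140 CPM on 8 UMIs. In the cluster led by Gm26870, Traf1 was at 207 and 144 CPM at day 7 and 37.5 CPM in day 28 mouse 2. Nfkbia followed the mouse as much as the cluster: day 28 mouse 1 was the highest library in every cluster it shared with other mice except the one led by Gm609. In the cluster led by Gm17268 and Ccl2 Nfkbia was at 247 CPM in that mouse and 98.3 CPM in day 28 mouse 2. In the cluster led by Gm17268 and Kcnh8 it was at 335, 88.1 and 127 CPM in the day 28 mice and 80.2 CPM in day 7 mouse 1. No order of the clusters by Nfkbia is given, since the clusters were filled by unlike sets of mice. In the 2 day 7 mice the Ccbe1-led cluster had 47.9 and 48.4 CPM of Nfkbia beside 486 and 641 CPM of Nfkb1. The cycling cluster led by Lockd, Diaph3, Top2a and Mki67 had 66.0 and 38.3 CPM of Nfkbia beside 554 and 376 CPM of Nfkb1.

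TAL-like nuclei also held more of several members after IRI. With both times averaged, 5 of the 7 members tested were higher than in controls and none lower, where 29.3% of 7789 genes were called (11.9% higher, 17.5% lower). Nfkb1 was at 89.1, 81.8, 48.1 and 161 CPM in controls, 415 and 402 CPM at day 7, and 227, 171 and 286 CPM at day 28 (log2 change 1.78 ± 0.27, edgeR adjusted p = 7.2e-05). No IRI library overlapped the controls. Birc3 was at 36.8, 59.9996, 0 and 8.50 CPM in controls, 146 and 211 CPM at day 7, and 93.3, 109 and 177 CPM at day 28 (log2 change 2.401 ± 0.44, edgeR adjusted p = 3.5e-04). Relb (2.60 ± 0.40, edgeR adjusted p = 7.6e-05) and Tnfaip3 (2.91 ± 0.68, edgeR adjusted p = 0.0030) were called as well. Traf1 was called with 1 UMI in all TAL-like control nuclei (edgeR adjusted p = 0.0022). Rela missed the threshold (1.25 ± 0.52, edgeR adjusted p = 0.079), and Nfkbia differed by 0.17 ± 0.31 (edgeR adjusted p = 0.72). Nfkb2, Rel and Nfkbie did not pass the count filter. Without TMM factors the median of all genes moved up by 0.20 and the higher share of called genes from 40.5% to 58.6%, with 6 members called. With the barcode set as a term none was called, the log2 change of Nfkb1 being 1.79 (edgeR adjusted p = 0.098).

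The difference between the classes was tested itself. The IRI effect on 2 of 10 members was larger in PT-like than in TAL-like nuclei and on none smaller, where 8.16% of 12233 genes were called (4.6% higher, 3.56% lower). These were Nfkb1, by 1.25 ± 0.23 on the log2 scale (edgeR adjusted p = 3.9e-05), and Birc3, by 1.77 ± 0.36 (edgeR adjusted p = 3.4e-04). Both lost the call with the barcode set as a term (edgeR adjusted p = 0.22 and 0.054). Birc3 also lost it without control 1 (edgeR adjusted p = 0.086) and with DESeq2 (adjusted p = 0.39). Without TMM factors the higher share of called genes went from 56.4% to 83.2%, with 3 members called. Relb differed by 1.33 ± 0.49 (edgeR adjusted p = 0.083). The TAL-like nuclei of IRI mice formed mainly 3 clusters. The first, led by Slc12a1, Sgcz and Mecom, averaged 365 CPM of Nfkb1, 218 CPM of Birc3 and 37.6 CPM of Traf1, and scored 1.19 for injured-tubule markers. The second averaged 261, 80.5 and 0.978 CPM, and the third, with at least 20 nuclei in 1 IRI mouse, had 158, 83.2 and 8.32 CPM. The first held 361 nuclei, 1 of them from a control, while TAL-like nuclei after IRI numbered 806. Of the 11819 PT-like nuclei after IRI, 10676 were injured-state. The part of this unlike make-up in the difference between the classes was not tested.

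Across classes, Rel stood out in leukocyte-like nuclei. In IRI mice it was at 93.8 CPM in leukocyte-like nuclei (37 UMIs in 227 nuclei, exact Poisson interval 66.0 to 129), 23.0 CPM in endothelium-like nuclei (14.9 to 34.0), 10.8 CPM in injured-state PT-like nuclei (9.69 to 11.996) and 3.48 CPM in uninjured-state ones (1.90 to 5.84). The intervals, from UMIs pooled over mice, cover counting error only. That of the leukocyte-like nuclei lies above the rest. Nfkb1 was broad: 550 CPM in leukocyte-like nuclei (479 to 628), 488 CPM in injured-state PT-like (481 to 496), 445 CPM in stroma-like (402 to 491), 407 CPM in endothelium-like (370 to 446), 340 CPM in TAL-like (317 to 364), 297 CPM in podocyte-like (213 to 402), 290 CPM in distal-like (255 to 329), 222 CPM in intercalated-like (179 to 272) and 193 CPM in uninjured-state PT-like nuclei (179 to 207). Neighbours in this order had overlapping intervals, except that endothelium-like lay above TAL-like nuclei, and the mice of a class spread more widely, as from 114 to 468 CPM in distal-like nuclei.

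Birc3 was at 307 CPM in both leukocyte-like (254 to 366) and injured-state PT-like nuclei (301 to 313), and at 212 CPM in intercalated-like (170 to 261) and 180 CPM in distal-like nuclei (152 to 211). Relb was at 126 CPM in injured-state PT-like (122 to 130) and 106 CPM in leukocyte-like nuclei (76.7 to 144). Traf1 was highest in leukocyte-like nuclei at 63.4 CPM (41.0 to 93.5), followed by injured-state PT-like nuclei at 42.4 CPM (40.2 to 44.7), whose intervals overlap the former. The Nfkbia levels after IRI lay between 33.3 CPM (uninjured-state PT-like) and 81.0 CPM (endothelium-like), and its control levels between 33.6 CPM (distal-like) and 64.4 CPM (stroma-like) in the classes with at least 89 control nuclei. Controls held 21 leukocyte-like and 42 podocyte-like nuclei, too few to set beside these.

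**Figure D5:**
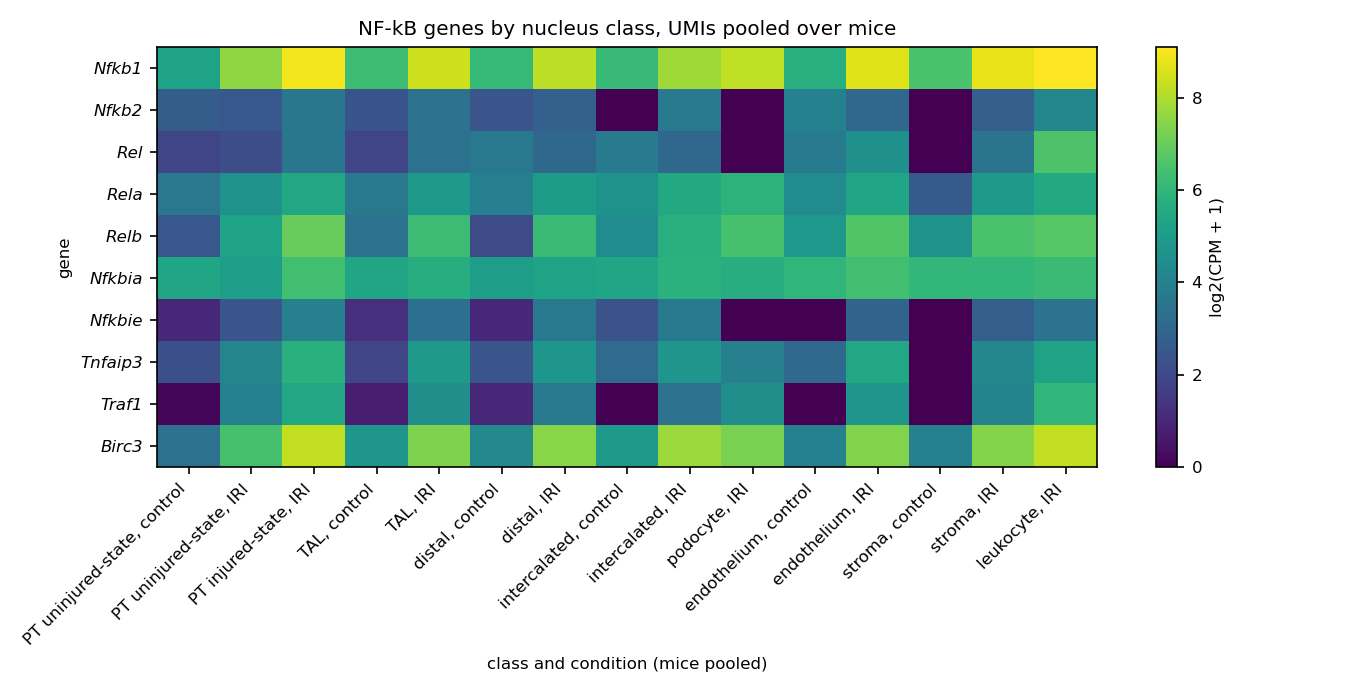
Colour gives log2(CPM + 1) of each gene (rows) in each class and condition (columns), with UMIs pooled over 4 control or 5 IRI mice. Rel is brightest in leukocyte-like nuclei, Nfkbia is of similar brightness along its row, and Nfkb1, Relb and Birc3 are brighter in the IRI than in the control column of each class shown with both.

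Counted per nucleus, after thinning every nucleus to 1000 UMIs, Nfkb1 had a UMI in 3.74%, 3.79%, 3.21% and 3.30% of uninjured-state nuclei in the 4 controls. It had one in 39.4% and 34.7% of injured-state nuclei in the day 7 mice and in 30.6%, 28.3% and 35.6% in the day 28 mice. Both IRI groups lay above the controls and overlapped each other. Pooled over mice these were 3.49% of 8279, 37.1% of 4776 and 30.0% of 4704 nuclei. Nuclei under 1000 UMIs left out numbered 2457, 889 and 307, and the unthinned shares were 6.05%, 59.4% and 54.8% at median depths of 1700, 2368 and 2817 UMIs. Nfkbia was found in 3.60%, 3.19%, 4.20% and 4.95% of uninjured-state nuclei in controls. In injured-state nuclei it was found in 5.87% and 5.18% at day 7, and 18.2%, 7.09% and 10.2% at day 28. The injured-state day 28 shares of Nfkbia lay above the rest of these, with mouse 1 the highest. Birc3, in the same states, was found in 1.16%, 0.797%, 0.420% and 1.98% in controls, 23.3% and 22.5% at day 7, and 22.016%, 20.6% and 29.2% at day 28, so that the 2 times overlapped. Per mouse, the share of nuclei with UMIs of at least 2 of the 10 members was 0.473% to 2.64% in controls, 24.97% and 22.7% in injured-state nuclei at day 7, and 28.4%, 18.4% and 32.0% at day 28. In uninjured-state nuclei of IRI mice that share was 6.28% and 9.04% at day 7, and 1.09%, 0.980% and 3.18% at day 28. There Nfkb1 was found in 19.7% and 18.6%, then 6.88%, 5.88% and 11.5%. Nfkbia was found in 2.51% and 3.72%, then 4.35%, 0.980% and 3.18%. Birc3 was found in 6.28% and 10.1%, then 2.54%, 3.43% and 5.10%. No class is known to lack these genes, so no share of free RNA could be set beside these.

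The rest of the pathway was read from lists by role, chosen with earlier results of these data known. Their counts stand beside those of all 14192 genes tested, of which 26.3% were higher and 24.8% lower at day 7 (51.1% in all) and 24.1% and 21.2% at day 28 (45.3% in all). Of 11 receptors tested in PT-like sums, 6 were higher and 1 lower at day 7, and 7 higher and 2 lower at day 28. The changes farthest from 0 at day 28 were those of Tnfrsf1b (log2 change 5.31), Cd40 (4.84), Il1r1 (4.63) and Tlr2 (4.43), which bind TNF, CD40 ligand, interleukin-1 and bacterial lipoproteins. All averaged below 1 CPM in controls, so the sizes of these changes depend on the prior count. Of 2 ligands tested, 1 was higher at both times, Ltb (lymphotoxin beta, 4.46). Among the 13 adaptors and ubiquitin ligases, 3 were higher and 2 lower at day 7, and 4 and 2 at day 28, shares near those of all genes. Traf5, an adaptor of TNF receptors, fell from 429 CPM in controls to 59.6 CPM at day 7 and 53.2 CPM at day 28 (log2 change -3.01 at day 28). Birc2, the paralog of Birc3, rose by 2.43 and Traf3 by 1.13, while Rbck1, a part of the linear ubiquitin ligase, fell by 0.90. Birc2 and Birc3 are similar in sequence, and how reads shared between them were counted is not stated.

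Beside the same shares of all genes (51.1% called at day 7, 45.3% at day 28), 6 of 11 kinases were higher and 1 lower at day 7, and 5 and 1 at day 28. Map3k8 (log2 change 4.96) and Ikbke (2.66) rose, as did Ikbkb (0.88), which encodes the catalytic subunit of the canonical IkB kinase, while Chuk, the other catalytic subunit gene, fell by 0.99. Of 12 further inhibitors and atypical IkB genes, 7 were higher and 1 lower at day 7, and 9 higher and none lower at day 28, led by Tnip3 (3.90), Nfkbid (3.53), Nfkbiz (3.08) and Bcl3 (2.89). Of 20 target genes, 11 were higher and 1 lower at day 7, and 14 and 2 at day 28. The 4 farthest from 0 were Ccl2 (6.91), Vcam1 (6.47), Ccl7 (5.66) and Cxcl2 (5.02), chemokines and an adhesion molecule. Vcam1 and Lcn2, both on this target list, were also on the marker list for naming clusters. Ccl2 was at 261, 59.6 and 66.3 CPM in the day 28 mice, and Ccl7 at 42.8, 6.22 and 4.31 CPM. Mouse 1 stood far above the others in both. Without it, an alternative chosen after seeing the data, the log2 change was 5.88 for Ccl2 (edgeR adjusted p = 7e-08) and 4.03 for Ccl7 (edgeR adjusted p = 0.00197). None of the 21 genes named from these lists lost its call or turned direction with a single day 28 mouse left out. Tnip3, Map3k8, Ltb, Ccl2 and Ccl7 averaged below 1 CPM in controls, so the sizes of their changes depend on the prior count. Median log2 changes at day 28 were 2.85 for receptors, 0.47 for adaptors, 0.47 for kinases, 1.30 for inhibitors and 1.88 for targets, beside 0.04 for all genes. The lists share the controls and the clusters of the members' comparison.

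Patterns were also compared with those of 9852 genes over 42 sums by class and mouse, each of at least 50 nuclei. These sums share libraries and depth, so the correlations of log2(CPM + 10) are descriptions. Dock10 was most like both Nfkb1 (Pearson r = 0.957) and Birc3 (0.956), and Birc3 most like Relb (0.932). Creb5 was most like Traf1 (0.929) and Cd44 most like Tnfaip3 (0.895). Nfkbia was least like any other gene among the members, with Rhob (0.705) and Hspb1 (0.696) nearest, and Nfkb2 had Dnase1l1 nearest (0.726). Rela was nearest to Sbno2 (0.795), Nfkbie to Ptpn13 (0.773) and Rel to Sipa1 (0.767).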

How the data were processed

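The authors deposited raw UMI counts per gene and nucleus in 2 tables, made with Cell Ranger, STAR and Seurat on mm10 per the submitters' processing notes (no versions are given here). Doublets were gated out at the sorter, per the labels' protocols, and no doublet caller was run. The files used here give no cell types. Nuclei were clustered with scanpy 1.11.5 (2000 variable genes, 30 components, Leiden resolution 2, seed 0) without 80 member and pathway genes. Classes came from marker lists, and 4 of 39 clusters stayed unnamed, 2 of them by a rule set after seeing the clusters. Counts summed per mouse were tested with edgeR 4.0.16 (TMM, filterByExpr, quasi-likelihood F test) in R 4.3.3 on genes of both tables, all 9 libraries in 1 fit (injured-state nuclei: 5 IRI libraries; PT minus TAL: mouse as block). The threshold was 0.05 after Benjamini-Hochberg adjustment over all genes. SE is the log2 change divided by the square root of F. P-values measure the spread between these mice. All 10 members are named throughout, and per pathway list at most 4 genes, those with the largest change at day 28 among those called. Alternatives were DESeq2 1.42.0, other scaling and filters, left-out mice, a replicate block, barcode set, deeper nuclei, seed 1 and other sample sets. Members and lists were chosen with earlier results of these data known. On simulated data 70% of 4-fold and 9% of 2-fold changes were recovered in the PT-like day 7 comparison of 14192 genes. For day 28 against day 7 these were 62% and 8%. Far fewer genes were changed there than were called in the data, so these shares do not give the power of the tests made. Gene spans came from GENCODE mouse release 21 and promoters from RefSeq.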

Additional observations from a re-analysis of the deposited data

Results flagged for a closer look

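The IRI effect on Nfkb1 was 1.25 larger on the log2 scale in PT-like than in TAL-like nuclei, and that on Birc3 was 1.77 larger, by a test of the difference itself (edgeR with the mouse as block). Both calls were lost with the barcode set as a term, and that of Birc3 also with DESeq2 and without control 1. In 30 sets of 4 control values checked for a value far from the rest, 3 were found, all of Traf1. Control 1 held the whole range (gap over range 1.0) because the other 3 controls had no Traf1 UMI in PT-like, uninjured-state PT-like or TAL-like nuclei. These rest on 1 or 2 UMIs, and the 2 UMIs of the PT-like and the uninjured-state PT-like sets are the same. A ratio of 1.0 is fixed wherever 3 of 4 controls have no UMI, so no rate of chance flags applies to them.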

How the results depend on the processing

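Counts of members called in PT-like sums stayed within 1.5 times their values under every alternative run. In the uninjured state at day 28 the count of 3 ran from 1 to 5 with single mice left out, and was 0 with the barcode set as a term and 0 without the Cyp7b1-led cluster. At day 7 the count of 5 was 0 with the barcode set, 3 with seed 1 and 1 without that cluster. Between the times the count of 1 ran from 0 to 3 with single mice left out and was 0 with the barcode set, seed 1, only the 2 groups compared or that cluster left out. The TAL-like count of 5 and the PT minus TAL count of 2 (1 to 2 with single mice left out) were both 0 with the barcode set. The cause was not tested.

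With the replicate number as a block the counts were 8 and 9 in PT-like sums at day 7 and day 28, 2 in the uninjured state at day 28, 0 between its times, and 1 in the injured state (Nfkbia, edgeR adjusted p = 0.0041). The numbers share only a label: same-numbered mice of different groups had correlations of -0.22 to 0.05 (7 pairs), other pairs -0.17 to 0.19 (19 pairs). Under the block Nfkbia between the times in the uninjured state was -0.0086, and in the injured state Relb was -0.1003 and Birc3 -0.0323.

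Directions that turned were log2 differences, 1 of them called: Tnfaip3 at day 7 in the uninjured state, -0.7909 with the barcode set. With that term Rela was -1.9042 at day 7, and at day 28 Rela was -1.8255, Relb -0.5168 and Tnfaip3 -1.1350. Between the times Rela was then 0.0787 and Nfkbia -0.0389. Seed 1 gave 0.1192 and -0.2508 for these 2 genes. Without the Cyp7b1-led cluster they were 0.6648 and -0.2346, Birc3 was 0.2319, and Rela at day 7 was -0.1977. In PT-like sums between the times Relb was 0.0014 (barcode set), 0.0042 (2 groups only) and 0.0550 (one barcode set only). Birc3 was 0.1361, 0.0380 and 0.1938 there, 0.0065 with DESeq2 and 0.0010 without nuclei under 1000 UMIs, and Tnfaip3 was -0.0802 over all nuclei. In the injured state Rela was 0.0031 without nuclei under 1000 UMIs. For PT minus TAL, Rela was -0.0328 with DESeq2 and -0.9738 with the barcode set, and Tnfaip3 -0.0423 with no filter.

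With single mice left out, PT-like differences between the times ran from -0.4796 to 0.0386 (Rel), -0.3811 to 0.1233 (Relb), -0.1031 to 0.5874 (Nfkbie), -0.2567 to 0.4340 (Tnfaip3) and -0.2884 to 0.1371 (Birc3). In the injured state they ran from -0.2547 to 0.2559 (Rel), -0.1193 to 0.1291 (Rela), -0.0821 to 0.4538 (Relb), -0.0628 to 0.6333 (Tnfaip3) and -0.0433 to 0.3147 (Birc3). In the uninjured state between the times they ran from -1.3846 to 0.1059 (Nfkb2), -0.6878 to 0.0793 (Rela), -0.0390 to 0.5066 (Nfkbia) and -2.2233 to 0.0018 (Traf1). Nfkb2 at day 7 ran from -1.3364 to 0.1209 there, and Relb at day 28 from -0.0140 to 1.7814. PT minus TAL ran from -1.1659 to 0.4777 (Rela), -0.1875 to 1.9060 (Nfkbie) and -0.8207 to 0.3870 (Tnfaip3). Few UMIs limit Rel, Nfkb2 and Nfkbie in small classes.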
